A study of Mus musculus with 44 samples.

Results

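Glucose, lactate and glycogen handling was followed through 10 genes in mouse dorsal root ganglia (DRGs), the clusters of sensory neuron cell bodies beside the spinal cord. The genes were chosen by name, with earlier results of these data known. The set holds the glucose transporters Slc2a1 and Slc2a3, and the lactate transporters Slc16a1 and Slc16a7 with their partner protein Bsg. It also holds the lactate dehydrogenase subunits Ldha and Ldhb, the hexokinase Hk1, and the glycogen enzymes Pygb and Gys1. These are 10 of the 45882 genes in the larger expression tables and of the 12170 genes in the neuron table. All 10 are in every table and passed the filter on low values in every comparison. The study measured RNA by bulk sequencing in 44 libraries of C57BL/6 mice, in 12 groups, to compare sorted satellite glia (SGCs, which form a sheath around each sensory neuron) with the ganglion they come from and to follow both glia and neurons after injury of the sciatic nerve.

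The naive groups, from mice 9 weeks old, were 4 libraries of sorted SGCs and 4 of whole DRGs. The other mice were 9 to 11 weeks old. SGCs were sorted 3 days after full sciatic nerve ligation and 3 days after sham surgery, and 14 days after each of these, with 4 libraries per group. Neurons were isolated at 8 days, after a partial ligation of the nerve or sham surgery, in males and in females, with 3 libraries per group. A further 4 neuron libraries came from the ligated side and 4 from the opposite side of mice with a partial ligation. Per the labels, SGCs and whole DRGs were dissociated and fixed with paraformaldehyde, SGCs were then stained and sorted by flow cytometry, and neurons were purified with magnetic beads without fixation. No label says whether a library holds 1 animal or a pool, or which libraries share an animal, so a p-value here rests on the spread among libraries alone, which may be technical.

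In the usual picture of nervous tissue, glia take up glucose through Slc2a1 (GLUT1) and neurons through Slc2a3 (GLUT3), a transporter with a higher affinity for glucose. Hexokinase traps the glucose for glycolysis, and glycogen synthase and glycogen phosphorylase store and release it. Lactate dehydrogenase is a tetramer of Ldha and Ldhb chains: a tetramer rich in Ldha is associated with making lactate from pyruvate, and one rich in Ldhb with turning lactate back into pyruvate. The monocarboxylate transporters Slc16a1 (MCT1), found on glia and endothelium in brain, and Slc16a7 (MCT2), a high-affinity form found on brain neurons, carry lactate across membranes. Bsg (basigin) brings Slc16a1 to the cell surface. The proposal that glia hand lactate to neurons rests on this division of transporters and subunits.

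Values are FPKM (sequenced fragments divided by transcript length and by library depth), which corrects for transcript length, so levels of different genes can be set side by side. The libraries gave 10225 to 13173 genes at 1 FPKM or more. Read counts were not used here, so the depth behind each value is unknown. The 3 tables (naive, SGC surgery, neuron) were scaled separately and are never tested against each other. All genes summed to 1151743 to 2209060 FPKM in naive libraries and 1315322 to 2365518 in SGC surgery libraries. In neuron libraries they summed to 566375 to 656459, so equal FPKM in SGCs and neurons are unequal shares of a library. As a check of the labels, all 8 SGC markers rose in naive SGCs over DRGs and all 10 neuron markers fell. The 10 genes of a nerve injury list included 4 that rose in SGC libraries at 3 days after ligation, 0 at 14 days, where all 10 differences were positive, 8 in neurons after ligation and 10 on the ligated side. The summed neuron markers stood at 104 to 259 FPKM in naive SGC libraries, against 2925 to 5309 in DRG libraries. The sum was 173 to 863 FPKM in the 16 SGC surgery libraries and 8795 to 13138 in the 20 neuron libraries. The neuron libraries also held hemoglobin genes and Alas2, summed at 354 to 24162 FPKM, and 6 markers of myelinating Schwann cells, summed at 729 to 2848 FPKM. Of the 8 SGC markers 3 were in the neuron table, summed at 36.5 to 72.4 FPKM. In a bulk sample, fewer cells of a type and less RNA per cell cannot be told apart.

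The lactate dehydrogenase subunits stood in opposite proportions in glia and neurons. Ldhb made up 83.7% to 94.8% of the summed Ldha and Ldhb FPKM in the 20 sorted SGC libraries, against 7.22% to 22.2% in the 20 neuron libraries, with medians of 89.9% and 13.3%. A share within a library is not altered by a scaling factor applied to the whole library. In naive mice the share averaged 93.2% ± 1.38 in SGCs, against 78.0% ± 2.71 in DRGs (SD, n = 4 each), and the groups did not overlap. After surgery it averaged 88.5% ± 3.99 in SGCs 3 days after ligation and 87.6% ± 3.01 after sham, and at 14 days 88.6% ± 1.08 after ligation and 90.0% ± 1.28 after sham. The ranges overlapped at both days. In neurons the share was 12.8% ± 2.12 in the 6 libraries after ligation and 15.4% ± 4.77 in the 6 after sham, and 12.01% ± 3.30 on the ligated side against 11.9% ± 3.57 on the opposite side. In the plot of shares the Ldhb share keeps glia and neurons apart in every library, and ligated and sham libraries overlap within each. SGCs and neurons differed in fixation, purification, ganglia taken and extent of ligation, so cell type and preparation cannot be told apart in these side-by-side values.

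**Figure D1:**
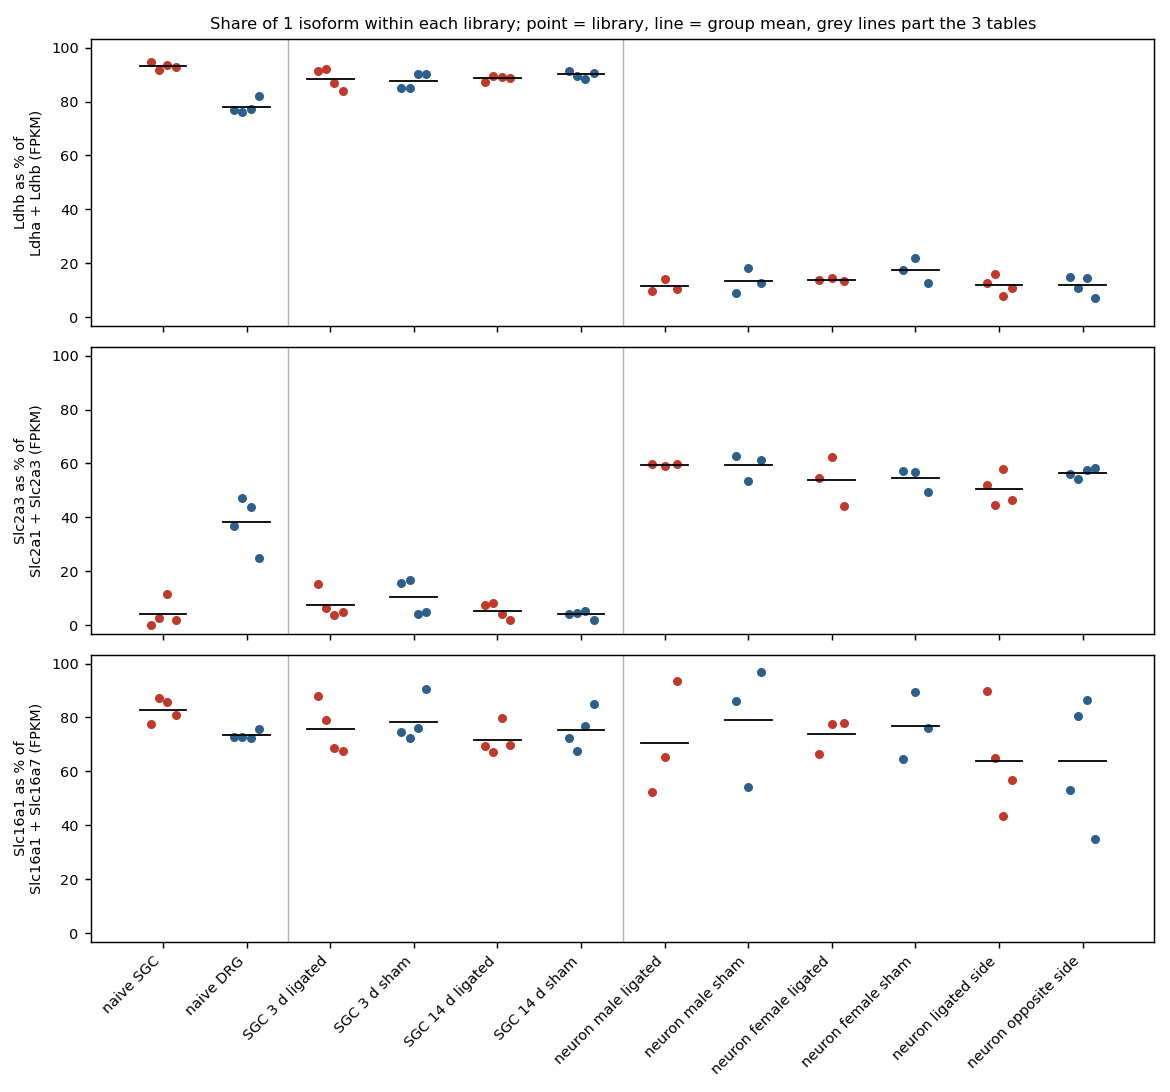
Share of one gene within its pair, in percent of summed FPKM, for each of the 44 libraries in 12 groups (points are libraries, lines are group means, grey lines part the 3 separately scaled tables). Ldhb holds 83.7% to 94.8% of the Ldha and Ldhb sum in sorted SGCs and 7.22% to 22.2% in neurons, and Slc2a3 holds at most 17.0% of the Slc2a1 and Slc2a3 sum in SGCs and at least 44.4% in neurons.

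Each subunit's level was also read by itself. Ldha stood at 35.7, 55.6, 47.1 and 47.2 FPKM in naive SGCs, against 184.8, 207, 157 and 140.5 in DRGs. The log2 difference of Ldha was -1.87 ± 0.17 (SE; limma, adjusted p = 7.7e-05), and every SGC library lay below every DRG library. Ldhb stood at 648, 598, 696 and 621 FPKM in naive SGCs, against 611, 662, 529 and 643 in DRGs. These ranges overlapped, and the log2 difference of 0.07 ± 0.12 did not pass the test (limma, adjusted p = 0.67), with an interval of 2 SE from -0.17 to 0.31. Over all settings run, the Ldhb difference ranged from 0.0032 to 0.37, and its lowest adjusted p was 0.070 (limma). In the 16 SGC surgery libraries Ldha ranged from 41.6 to 79.4 FPKM with a median of 61.6, and Ldhb from 408 to 714 with a median of 472. In the 20 neuron libraries Ldha ranged from 507 to 1234 FPKM with a median of 819, and Ldhb from 62.8 to 225 with a median of 133. Processed copies of Ldha exist in the mouse genome, and how the authors' counting split reads between them is not given in the sources used here.

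The region around the start of each subunit gene is shown because the pair differed so widely between glia and neurons. Ldha lies on chromosome 7 from 46841475 to 46855627 (+ strand) and Ldhb on chromosome 6 from 142490249 to 142507957 (− strand, GRCm38, GENCODE M21). The sequences run from 250 bases before to 50 bases after an annotated start, 5′ to 3′ on the gene's own strand, from RefSeq (GRCm38.p6). Capitals mark ACGTG or its reverse complement CACGT, which become CACGTG where they overlap. ACGTG is a form of the core letters of hypoxia response elements, and no other form was searched.
Ldha, chr7:46845554-46845853, + strand: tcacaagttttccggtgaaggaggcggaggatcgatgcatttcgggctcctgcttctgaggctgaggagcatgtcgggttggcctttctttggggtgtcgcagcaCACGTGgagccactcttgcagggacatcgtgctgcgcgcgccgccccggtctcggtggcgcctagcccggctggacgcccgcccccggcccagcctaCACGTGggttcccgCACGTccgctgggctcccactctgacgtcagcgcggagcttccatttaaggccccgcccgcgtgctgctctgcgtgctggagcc
Ldhb, chr6:142507908-142508207, − strand: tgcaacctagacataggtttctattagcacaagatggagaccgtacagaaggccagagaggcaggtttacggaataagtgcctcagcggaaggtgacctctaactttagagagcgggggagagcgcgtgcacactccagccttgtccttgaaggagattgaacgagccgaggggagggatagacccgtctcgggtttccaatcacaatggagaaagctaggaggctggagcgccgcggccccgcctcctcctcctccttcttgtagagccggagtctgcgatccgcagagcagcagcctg
The Ldha window holds ACGTG 2 times and CACGT 3 times, 2 pairs of them overlapping as CACGTG, and the Ldhb window holds neither. A second annotated Ldha start, chr7:46846832-46847131, holds neither as well. Of 32851 promoters of this length, 6447 (19.6%) hold at least 1 match on either strand. RefSeq promoters were matched for 7 of the 10 genes, and 5 of these genes, Ldha, Hk1, Pygb, Slc16a1 and Slc2a1, hold a match in 1 window, which makes 5 of their 9 windows (55.6%). A match of letters is a description and shows no binding.

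Of the glucose transporters, Slc2a3 was the lower in SGCs. It stood at 0.0062, 1.02, 1.56 and 0.50 FPKM in naive SGCs, against 6.57, 7.20, 7.92 and 4.37 in DRGs, with no overlap. Its log2 difference was -2.14 ± 0.30 (limma, adjusted p = 0.00058), and -3.46 ± 0.79 with a pseudocount of 0.1 in place of 1. Slc2a3 remained between 0.53 and 4.19 FPKM in the 16 SGC surgery libraries, while the 20 neuron libraries held 14.1 to 53.0 FPKM with a median of 36.3. Slc2a1 stood at 20.8, 33.9, 11.9 and 24.3 FPKM in naive SGCs, against 11.2, 8.05, 10.1 and 13.2 in DRGs; the lowest SGC library lay inside the DRG range. Its log2 difference was 0.96 ± 0.29 (limma, adjusted p = 0.026). That call was lost in 6 of 12 other settings: without the filter on low values (adjusted p = 0.055), and without SGC library 2 (0.054) or 4 (0.063) or DRG library 1 (0.056), 2 (0.078) or 3 (0.064). Without SGC library 3, the lowest, the difference was 1.22 (adjusted p = 0.0036). Slc2a1 is also the main glucose transporter of barrier endothelium, and endothelial markers moved with it. Their sum over 10 genes was 114 to 242 FPKM in naive SGCs, against 56.3 to 106 in DRGs, and 4 of the 10 rose, with all 10 differences positive; their part in the Slc2a1 result was not tested.

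As a share of the 2 transporters, Slc2a3 averaged 4.14% ± 5.11 in naive SGCs and 38.3% ± 9.89 in DRGs (SD, n = 4 each). It ranged from 0.030% to 17.0% over the 20 sorted SGC libraries and from 44.4% to 62.7% over the 20 neuron libraries. The FPKM ranges of Slc2a1 overlapped between SGC and neuron libraries, whose tables differ in summed FPKM, so its levels there cannot be called equal. Slc2a1 held 16.9 to 47.0 FPKM with a median of 27.7 in SGCs after surgery, and 11.9 to 47.7 FPKM with a median of 28.8 in neurons. Slc2a1 lies on chromosome 4 from 119108711 to 119137983 and Slc2a3 on chromosome 6 from 122727809 to 122801640 (GRCm38). Exons of Slc2a1 overlap the antisense gene Gm12868, and no source used here says whether counting used strand.

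Of the lactate transporters, Slc16a1 rose in SGCs over DRGs. It stood at 16.6, 18.2, 17.8 and 17.2 FPKM in naive SGCs, against 8.21, 8.81, 7.90 and 10.5 in DRGs, with every SGC library above every DRG library. The log2 difference was 0.91 ± 0.13 (limma, adjusted p = 0.00054). In the SGC surgery libraries Slc16a1 ranged from 12.9 to 22.2 FPKM, and in the neuron libraries from 1.18 to 7.64. Slc16a7 held 2.66 to 4.78 FPKM in naive SGCs and 3.01 to 3.39 in DRGs, a log2 difference of 0.11 ± 0.18 (limma, adjusted p = 0.64). Slc16a7 ranged from 1.77 to 8.38 FPKM in SGCs after surgery and from 0.094 to 5.79 in neurons. The Slc16a1 share of the pair averaged 82.9% ± 4.37 in naive SGCs and 73.3% ± 1.49 in DRGs. In neurons this share spread from 35.0% to 97.0%, at levels of a few FPKM for both genes. An exon of Slc16a7 overlaps an unspliced transcript on the opposite strand, Gm47862.

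Bsg stood at 109.7, 149.6, 76.8 and 120.4 FPKM in naive SGCs, against 85.9, 50.8, 66.7 and 98.4 in DRGs, and the groups overlapped. The log2 difference of 0.59 ± 0.26 missed the threshold (limma, adjusted p = 0.091) and passed it after quantile normalization (0.85, adjusted p = 0.024) and without SGC library 3 (0.77, adjusted p = 0.036). In the SGC surgery libraries Bsg held 69.7 to 138 FPKM and in the neuron libraries 312 to 495. Emb (embigin), the other chaperone of monocarboxylate transporters, fell where Slc16a1 rose. It averaged 2.14 ± 0.99 FPKM in naive SGCs and 53.1 ± 9.81 in DRGs (SD, n = 4 each). The log2 difference of Emb was -4.15 ± 0.27 (limma, adjusted p = 1.6e-05). Emb ranged from 1.04 to 13.6 FPKM in SGCs after surgery and from 79.9 to 136 in neurons.

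The hexokinase and both glycogen enzymes fell in SGCs. Hk1, which phosphorylates glucose at the outer mitochondrial membrane, stood at 7.49, 9.72, 7.20 and 8.35 FPKM in naive SGCs, against 17.7, 16.03, 17.5 and 13.96 in DRGs (log2 difference -0.92 ± 0.14; limma, adjusted p = 0.00096). Pygb, the brain form of glycogen phosphorylase, stood at 15.05, 20.1, 18.9 and 16.5 FPKM in naive SGCs, against 80.9, 81.4, 67.1 and 53.3 in DRGs (log2 difference -1.93 ± 0.17; limma, adjusted p = 5.9e-05). Gys1, the glycogen synthase of muscle and brain, stood at 3.04, 1.09, 1.85 and 1.20 FPKM in naive SGCs, against 5.56, 10.7, 9.84 and 5.02 in DRGs (log2 difference -1.64 ± 0.30; limma, adjusted p = 0.0022). None of these groups overlapped. In neurons Hk1 ranged from 48.4 to 176 FPKM, Pygb from 122 to 311 and Gys1 from 11.3 to 42.3, all above their highest SGC library of any table. Exons of Gys1 overlap Ruvbl2, and those of Hk1 overlap Hk1os, on the opposite strand.

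In all, 2 of the 10 genes rose in naive SGCs over DRGs, 5 fell and 3 did not pass, where 44.9% of 12907 genes tested passed, 16.9% higher and 27.9% lower. The median log2 difference of the 10 was -0.42, beside -0.12 over all genes tested. The groups did not overlap for 6 of the 10, against 43.8% of all genes. Quantile normalization moved the median of all genes to 0.16 and the calls from 37.7% to 57.9% higher, and no gene of the 10 changed sign under it. The neuron markers fell with Ldha, Slc2a3, Hk1, Pygb and Gys1 in this contrast (median log2 difference of the 10 markers -4.83), and so did all 5 erythrocyte markers, 6 of 7 tested myelinating Schwann cell markers, 7 of 7 tested macrophage markers, 4 of 5 neutrophil markers and 4 of 5 tested mural cell markers; their part in these differences was not tested.

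**Figure D2:**
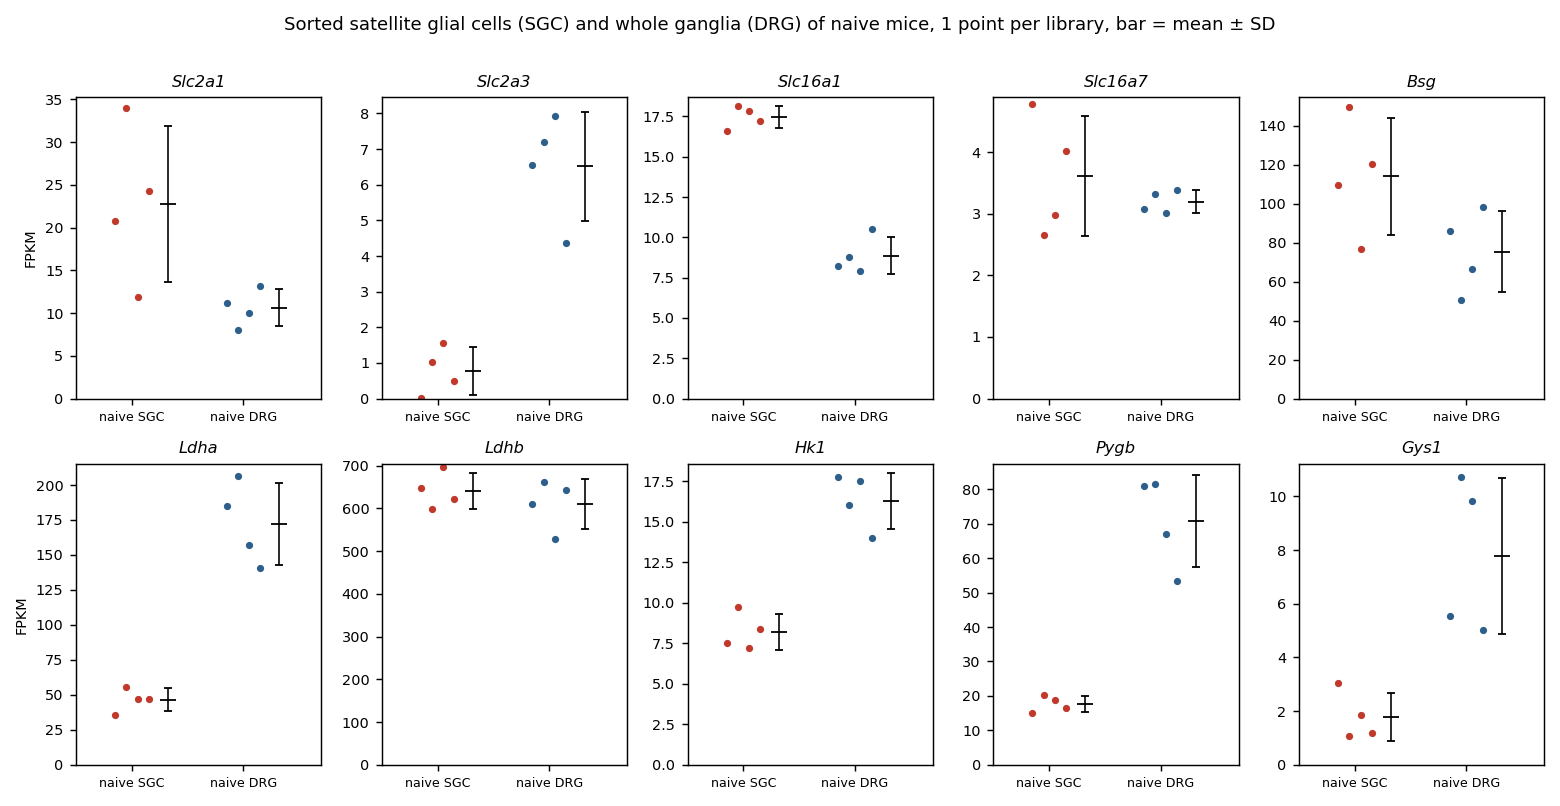
FPKM of the 10 genes in 4 libraries of sorted SGCs and 4 of whole DRGs from naive mice (points are libraries, bars are mean ± SD). Ldha, Slc2a3, Hk1, Pygb and Gys1 lie lower in every SGC library and Slc16a1 higher, while Ldhb, at 598 to 696 FPKM in SGCs and 529 to 662 in DRGs, overlaps.

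Lists of genes from the same pathways include the 10 and were likewise chosen with earlier results of these data known. They held 38 falls and 17 rises among 88 tested in naive SGCs, where 27.9% of all genes fell and 16.9% rose. After quantile normalization they held 28 falls and 23 rises. Of all 12907 genes tested, that setting called 6392, and 3701 of these were higher in SGCs (57.9% of those called, not of those tested). This background also belongs beside the counts after quantile normalization given below. Of 20 glycolysis genes tested, 15 fell and 2 rose (median log2 difference -0.99); after quantile normalization 11 fell and 3 rose (median -0.71). The falls included Eno2, the neuronal enolase, at 6.67 ± 2.23 FPKM in SGCs and 110 ± 22.6 in DRGs (log2 difference -3.88 ± 0.25; limma, adjusted p = 1.8e-05). Pfkp, the platelet form of phosphofructokinase, was at 3.78 ± 2.78 FPKM in SGCs and 56.5 ± 13.1 in DRGs (log2 difference -3.73 ± 0.38). Aldoa, Pkm, Gapdh and Tigar fell by 1.85, 1.80, 1.497 and 1.85 on the log2 scale. The 2 that rose, named after their values were seen, were Aldoc, the aldolase known from astrocytes, at 396 ± 56.1 FPKM in SGCs and 236 ± 25.6 in DRGs (log2 difference 0.74 ± 0.14; limma, adjusted p = 0.0029), and Pfkfb3, which makes the activator of phosphofructokinase (0.60 ± 0.13; limma, adjusted p = 0.0064).

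Of 23 glycogen genes tested, 11 fell and 2 rose (7 fell and 3 rose after quantile normalization). Gyg (glycogenin), the primer of glycogen, had 30.9 ± 10.1 FPKM in SGCs and 163 ± 42.6 in DRGs (log2 difference -2.38 ± 0.27; limma, adjusted p = 0.00018). Stbd1, which binds glycogen, had 2.18 ± 1.48 FPKM in SGCs and 19.6 ± 5.004 in DRGs (log2 difference -2.82 ± 0.41). The 2 that rose, again named after their values were seen, were Pgm1, a phosphoglucomutase (0.96 ± 0.32; limma, adjusted p = 0.038), and Ppp1r3b, a glycogen-targeting phosphatase subunit (0.86 ± 0.22; limma, adjusted p = 0.012). Of 4 glucose transporters tested, Slc2a6 also fell (-2.29 ± 0.39; limma, adjusted p = 0.0017), and its neuron libraries held 43.0 to 119.7 FPKM.

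Of 14 genes of pyruvate entry into mitochondria, 3 rose and 4 fell (median log2 difference -0.30), shares near those of all genes. After quantile normalization 4 rose and 3 fell (median 0.03), and Pdp1 was no longer called. All 7 were named after their values were seen. Pcx (pyruvate carboxylase), Pdk4 and Pdp2 rose by 0.90, 0.96 and 0.73 on the log2 scale, while Dlat, Mpc1, Pdhb and Pdp1 fell by 1.04, 0.65, 1.43 and 0.50. Of 8 pentose phosphate genes 3 rose and 1 fell (4 and 0 after quantile normalization). Of 13 energy sensing and hypoxia genes 5 rose and 3 fell (6 and 3 after quantile normalization). The 3 falls were AMP-activated kinase subunits, Prkab2, Prkag2 and, named after its values were seen, Prkaa2, with Prkab2 and Prkag2 both at -1.64 (limma, adjusted p = 0.00026 and 0.00033). Among the rises, named after their values were seen, Epas1 (HIF-2α) held 85.8 ± 4.31 FPKM in SGCs and 32.5 ± 6.07 in DRGs (1.39 ± 0.15; limma, adjusted p = 0.00016), and Hif1a 11.9 ± 1.37 in SGCs and 7.53 ± 0.62 in DRGs (0.60 ± 0.13; limma, adjusted p = 0.0066).

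Ranks within a library place glia beside neurons without a shared scale. Over the 12170 genes of all 3 tables, the percentile of each gene was taken in each library. The percentile ranges of the 20 sorted SGC libraries and the 20 neuron libraries did not overlap for 8 of the 10 genes, 2 higher and 6 lower in SGCs, beside 25.4% of all genes. Ldhb had a median percentile of 98.9 in SGCs and 93.0 in neurons, and Slc16a1 76.8 in SGCs and 34.4 in neurons. Ldha had 91.8 in SGCs and 99.3 in neurons, and Slc2a3 26.4 in SGCs and 79.2 in neurons. Bsg had 94.9 in SGCs and 98.1 in neurons, Hk1 67.2 and 90.7, Pygb 78.7 and 94.8, and Gys1 32.0 and 76.1. Slc2a1, with 83.7 in SGCs and 75.6 in neurons, and Slc16a7, with 48.7 and 17.8, overlapped. Ranks are among the genes of the neuron table, the smallest of the 3. That table holds only 3 of the 8 SGC markers. Genes absent from it are outside both the ranks and the 25.4%.

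The second question was whether nerve ligation changed these genes in SGCs. At 3 days none of the 10 passed the test, where 9 of 13924 genes tested (0.0646%) passed, 1269 of these genes had an unadjusted p under 0.05, and none of the 10 did. The authors' deposited table for this comparison called 178 genes and 0 of the 10, with a lowest adjusted p-value of 0.63. The differences ranged from -0.28 to 0.59 with a median of -0.14, beside -0.01 over all genes. Slc2a1 had the largest difference, at 23.1, 46.4, 45.6 and 46.5 FPKM after ligation, against 16.9, 18.1, 28.8 and 47.0 after sham. After ligation 1 library was low, after sham 1 was as high as the ligated ones, and the groups overlapped. The log2 difference was 0.59 ± 0.30 (limma, adjusted p = 0.59). Summed endothelial markers were 309 to 558 FPKM after ligation and 207 to 400 after sham, with positive differences for 10 of 10 markers and none called. The gene most like Slc2a1 over the 16 SGC surgery libraries was Tie1, a receptor of endothelial cells (Pearson r = 0.84 on log2 values over libraries of 4 groups), followed by Serpinh1 (0.81). These are the highest of 13924 genes. With the summed endothelial markers Slc2a1 had a lower Pearson r, 0.52 (Spearman rho 0.47). It was 0.41 without the 2 libraries farthest from the median of that sum. Over the 10 genes r with this sum ran from -0.54 for Pygb to 0.52 for Slc2a1. It was -0.475 for Ldhb and 0.43 for Gys1. The part of endothelial RNA in the Slc2a1 values was not tested.

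The other members had smaller differences at 3 days. Ldha stood at 41.6, 41.8, 66.5 and 79.4 FPKM after ligation, against 77.6, 78.0, 60.8 and 54.1 after sham, a log2 difference of -0.27 ± 0.21 (limma, adjusted p = 0.74). It was -0.14 without ligated library 1, -0.14 without ligated library 2 and -0.45 without ligated library 4. Within each surgery 2 libraries were high and 2 low. Ldhb held 408 to 490 FPKM after ligation and 439 to 559 after sham, and Slc16a1 15.1 to 16.7 after ligation and 12.9 to 22.2 after sham. For Slc16a1 the interval of 2 SE on the log2 difference was -0.34 to 0.31. Gys1 was listed at 0, 4.33, 4.28 and 1.08 FPKM after ligation, against 2.62, 2.43, 2.87 and 1.62 after sham. Its log2 difference of -0.28 ± 0.45 became 0.21 without the library listed at 0. The groups overlapped for all 10 genes, where 3.78% of all genes did not overlap.

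At 14 days none of the 10 passed the test, where 1 of 13924 genes (0.00718%) passed; 718 genes, with Ldhb and Gys1 among them, had an unadjusted p under 0.05. Ldhb stood at 507, 454, 427 and 439 FPKM after ligation, against 714, 538, 558 and 562 after sham. Every ligated library lay below every sham library, and the log2 difference was -0.37 ± 0.12 (limma, adjusted p = 0.81). Without sham library 1, the highest, it was -0.28. In the authors' deposited table, turned to ligated over sham, the log2 fold of Ldhb at 14 days was -0.37 with a standard error of 0.12 and an adjusted p-value of 0.13, the lowest of the 10 genes there; that table called 200 genes. Gys1 stood at 4.37, 2.71, 4.82 and 2.30 FPKM after ligation, against 0.79, 2.01, 0.76 and 0.75 after sham, again with no overlap, at a log2 difference of 1.13 ± 0.45 (limma, adjusted p = 0.88). These 2 of 10 genes with no overlap stand beside 4.07% of all genes.

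Pygb had 16.6, 20.8, 12.8 and 10.9 FPKM 14 days after ligation, against 19.7, 18.2, 22.1 and 19.9 after sham, a log2 difference of -0.40 ± 0.19 (limma, adjusted p = 0.97), and 1 ligated library lay inside the sham range. Slc2a1, at 24.1 to 30.3 FPKM after ligation and 21.3 to 37.6 after sham, had a difference of 0.06 ± 0.30. The remaining 6 genes, Slc2a3, Slc16a1, Slc16a7, Bsg, Ldha and Hk1, had differences between -0.20 and 0.23. Summed SGC markers were 10408 to 13489 FPKM after ligation and 10782 to 13583 after sham, summed neuron markers 273 to 839 and 277 to 583, and summed endothelial markers 256 to 441 and 187 to 357, with 10 of 10 endothelial differences positive. Summed macrophage markers were 10.4 to 31.9 FPKM after ligation and 2.15 to 18.3 after sham, with 4 of 4 tested differences positive. None of these markers was called and all sums overlapped, and their part in the differences was not tested.

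**Figure D3:**
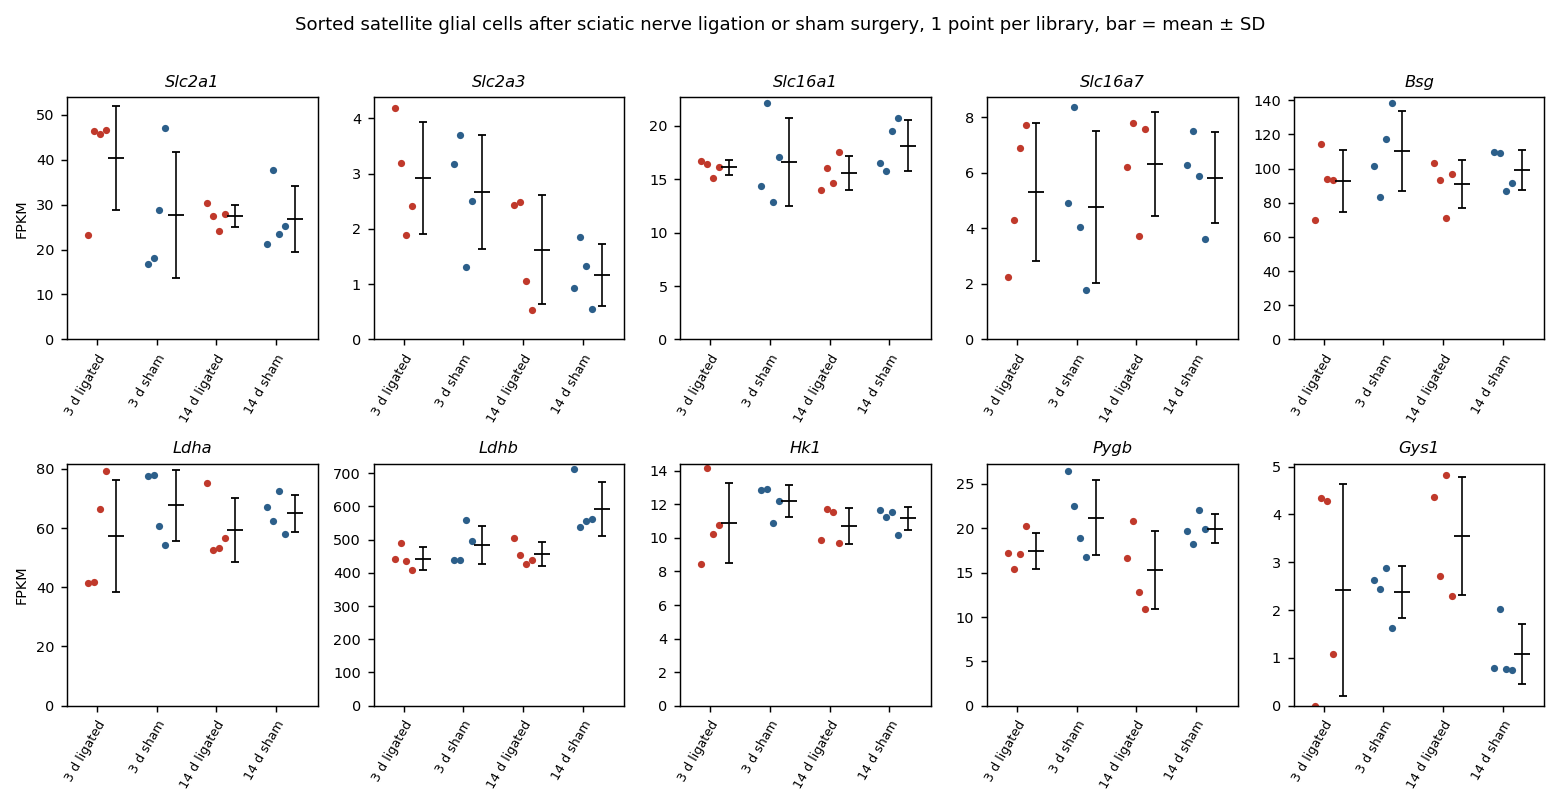
FPKM of the 10 genes in SGC libraries after ligation or sham surgery at 3 days and at 14 days, 4 per group (points are libraries, bars are mean ± SD). At 14 days Ldhb lies at 427 to 507 FPKM after ligation and 538 to 714 after sham, Gys1 at 2.30 to 4.82 after ligation and 0.75 to 2.01 after sham, and the other 8 genes overlap.

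The ligation effect at 14 days minus that at 3 days was not called for any of the 10 genes, where 1 of 13924 genes (0.00718%) was called and 584 had an unadjusted p under 0.05. It was largest for Gys1, at 1.41 ± 0.63 (limma, adjusted p = 1.0), and next for Slc2a1, at -0.53 ± 0.43. The Gys1 value was 0.92 without the 3-day library listed at 0 and 2.67 with a pseudocount of 0.1. The Slc2a1 value was -0.35 without 3-day sham library 1 and -0.82 without 3-day sham library 4. Of the other pathway genes, 0 of the 90 tested with the members passed in limma at 3 days, at 14 days or for the difference between the days, and 7, 8 and 2 of them had an unadjusted p under 0.05. The largest differences at 3 days were those of Ppp1r3e (1.004 ± 0.50), Pfkfb2 (-0.95 ± 0.91) and Phka2 (-0.91 ± 0.30). At 14 days they were those of Gbe1 (-0.75 ± 0.52), Dld (-0.73 ± 0.18, adjusted p = 0.43 by limma) and Stbd1 (0.71 ± 0.43). For the difference between the days they were those of Pfkfb2 (1.59 ± 1.29), Ppp1r3e (-1.21 ± 0.71) and Stbd1 (1.11 ± 0.61). Of the 90 genes 60 had negative differences at 3 days and 61 at 14 days, with medians of -0.12 and -0.10, beside -0.01 and -0.02 over all genes.

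The third question was whether neurons changed after ligation. Over both sexes none of the 10 genes passed, where 34 of 12145 genes (0.28%) passed, 435 of these genes had an unadjusted p under 0.05, and none of the 10 did. Slc2a1 stood at 35.8, 29.2 and 28.5 FPKM in ligated males and 39.9, 27.2 and 47.7 in ligated females, against 19.5, 34.9 and 21.7 in sham males and 35.0, 20.6 and 34.4 in sham females. The log2 difference was 0.33 ± 0.21 (limma, adjusted p = 1.0), and the ranges overlapped. Slc2a3 stood at 53.0, 41.9 and 42.7 FPKM in ligated males and 48.3, 45.4 and 38.1 in ligated females, against 32.8, 40.4 and 34.6 in sham males and 46.9, 27.0 and 33.7 in sham females. Over both sexes the ranges overlapped, and the difference was 0.33 ± 0.19 (limma, adjusted p = 1.0). The Slc2a3 effect in males minus that in females was 0.03 ± 0.38. The log2 folds were 0.49 for Slc2a1 and 0.36 for Slc2a3 in the authors' deposited table for neurons, turned to ligated over sham, with adjusted p-values of 0.11 and 0.36, and 0 of the 10 genes were among the 234 called there.

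Ldha held 714 to 1234 FPKM in the 6 ligated libraries with a median of 890.1, against 720.1 to 1008 in the 6 sham libraries with a median of 792 (difference 0.15 ± 0.17). Ldhb held 94.9 to 171 FPKM after ligation and 73.9 to 225 after sham (-0.12 ± 0.30). Bsg, at 364 to 495 FPKM after ligation and 383 to 442 after sham, had the narrowest interval of 2 SE, from -0.23 to 0.27. Over both sexes no gene of the 10 had groups apart, beside 0.79% of all genes. The ligation effect in males minus that in females was called for 0 of the 10 and 0 of 12145 genes (0% by limma, with 130 genes at an unadjusted p under 0.05), and ranged from -0.18 to 0.31 for the 10. Of the 87 pathway genes tested with the members none passed in limma in either comparison, and 1 for ligated over sham and 0 for the difference between the sexes had an unadjusted p under 0.05. Among the larger differences of ligated over sham neurons outside the 10 were those of Ppp1r3f (-0.80 ± 0.44) and Pdk3 (-0.57 ± 0.30). Those of males minus females were Pgls (-1.35 ± 1.31), Pfkfb2 (-0.97 ± 1.40) and Eno3 (-0.93 ± 0.55).

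Neurons of the ligated side were also set against those of the opposite side. None of the 10 genes passed, where 81 of 12145 genes (0.667%) passed, and 1196 genes had an unadjusted p under 0.05, Slc2a1 and Slc2a3 among them. Slc2a1 stood at 35.4, 39.8, 28.2 and 35.8 FPKM on the ligated side, against 19.3, 11.9, 22.5 and 23.0 on the opposite side. Every library of the ligated side was higher, and the log2 difference was 0.86 ± 0.25 (limma, adjusted p = 0.17), with adjusted p between 0.15 and 0.50 over the other settings. It was the only 1 of the 10 with groups apart, beside 4.46% of all genes. Slc2a3 stood at 38.4, 32.3, 39.1 and 31.3 FPKM on the ligated side, against 24.6, 14.1, 30.6 and 32.4 on the opposite side. These groups overlapped through 1 opposite-side library, and the difference was 0.51 ± 0.23 (limma, adjusted p = 0.46). Opposite-side library 2 was the lowest of all neuron libraries for both transporters. It was also the lowest for Ldha (507 FPKM), Gys1 (11.3), Bsg (312), Ldhb (62.8) and Pygb (122), but not for Slc16a1, Slc16a7 or Hk1. Without this library the Slc2a1 difference was 0.66 and the Slc2a3 difference 0.27.

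The remaining 8 genes had differences from -0.04 to 0.27 between the sides. Summed endothelial markers were 23.3 to 58.4 FPKM on the ligated side and 54.8 to 126 on the opposite side, with none called; their part in the Slc2a1 difference was not tested. Summed erythrocyte markers were 10781 to 24162 FPKM on the ligated side and 4088 to 18963 on the opposite side, and summed myelinating Schwann cell markers 1153 to 1554 and 729 to 1739. Of the 87 pathway genes tested with the members none passed in limma, and 13 had an unadjusted p under 0.05. The largest differences were those of Pfkfb4 (1.29 ± 0.43), Slc16a3 (1.23 ± 0.49), the lactate exporter MCT4, and Prkab1 (1.22 ± 0.36), with limma adjusted p of 0.26, 0.39 and 0.17. Slc16a3 stood at 3.96 ± 2.81 FPKM on the ligated side and 1.10 ± 1.28 on the opposite side.

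**Figure D4:**
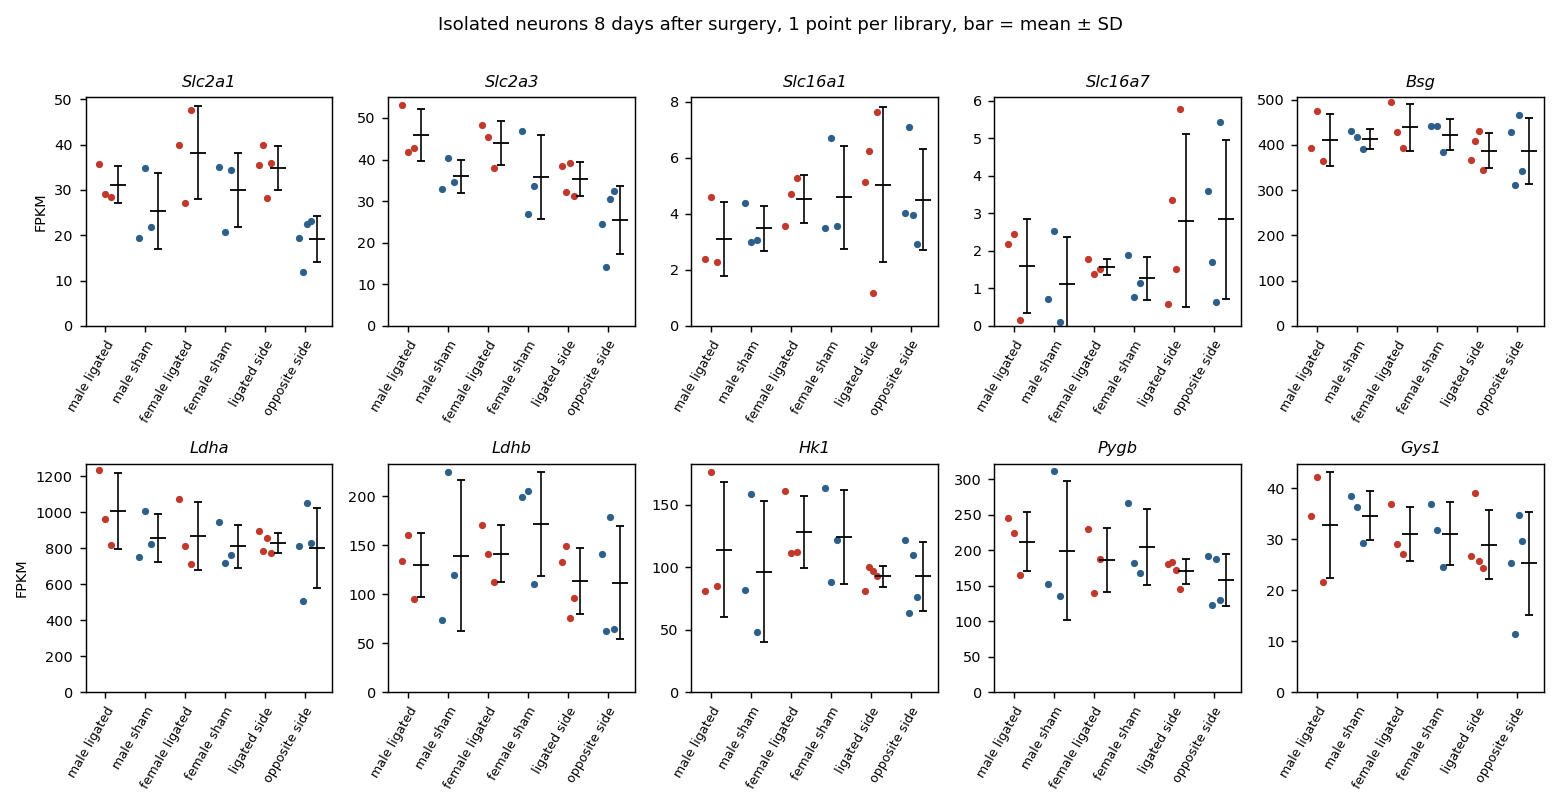
FPKM of the 10 genes in neuron libraries at 8 days: 3 libraries for each sex and surgery, and 4 for each side (points are libraries, bars are mean ± SD and are cut at 0). Slc2a1 lies at 28.2 to 39.8 FPKM on the ligated side and 11.9 to 23.0 on the opposite side, and the other 9 genes overlap between the sides. Over both sexes Slc2a3 lies at 38.1 to 53.0 FPKM after ligation and 27.0 to 46.9 after sham, and the ranges overlap.

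**Figure D5:**
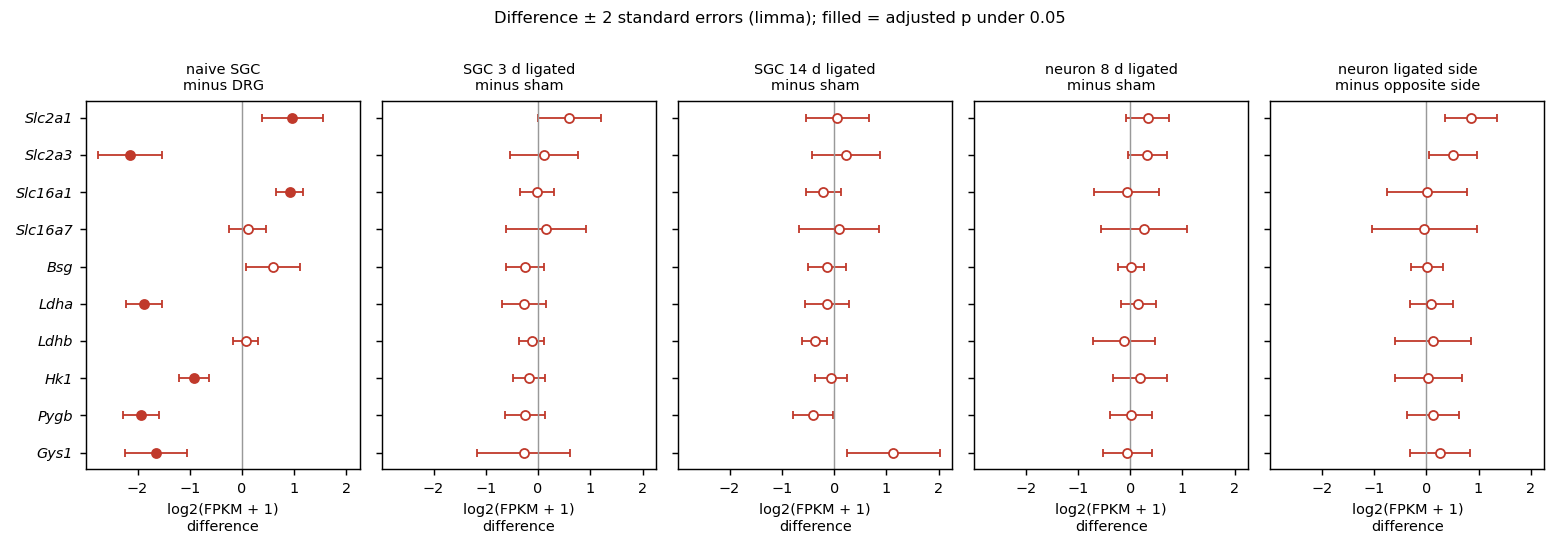
Log2(FPKM + 1) differences of the 10 genes with bars of 2 standard errors, in 5 comparisons (filled points have a limma adjusted p under 0.05). Of the 10 genes 7 are filled in naive SGCs minus DRGs, from -2.14 for Slc2a3 to 0.96 for Slc2a1, and none in the 4 ligation comparisons.

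Across the 20 neuron libraries some of the 10 genes followed markers of other cells. The log2 values of Ldha had a Pearson r of 0.92 (Spearman rho 0.85) with the summed markers of myelinating Schwann cells, and 0.85 without the 2 libraries farthest from the median of that sum. Pygb had 0.83 (rho 0.76; 0.79 without the 2 farthest). Against the summed erythrocyte markers Pygb had -0.79 (rho -0.65; -0.69) and Hk1 -0.68 (rho -0.60; -0.55). Over the 10 genes r ran from -0.45 for Slc16a1 to 0.92 for Ldha with the Schwann cell markers, and from -0.79 for Pygb to 0.20 for Slc16a1 with the erythrocyte markers. These points share groups, depth and the scaling of 1 table, and no test was made. The genes most like Ldha in neurons were Ubb (0.93) and Ap1m1 (0.92), those most like Slc2a3 were Nars (0.90) and Eno1 (0.89), and those most like Slc2a1 were Hspa9 (0.90) and Sars (0.88). For Gys1 they were Igsf3 (0.89) and Gyg (0.87), for Hk1 Gdap1l1 (0.91) and Trim2 (0.89), and for Pygb Abcf2 (0.90) and Supt5 (0.90). For Ldhb they were Tuba4a (0.85) and Ilvbl (0.82), for Bsg Pfn1 (0.88) and Pcbp3 (0.87), for Slc16a1 Zc3h7b (0.81) and Hmgn1 (0.80), and for Slc16a7 Fsd2 and Mcc (0.73 each).

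Over the 16 SGC surgery libraries the closest pair of members was Ldha and Slc16a7, at a Pearson r of 0.57, while in neurons Slc2a3 and Ldha reached 0.78. The neuron value includes opposite-side library 2, the lowest for both genes, and no r between members is given without that library. The genes most like Ldhb in SGCs were Gstk1 (0.88) and Gm10250 (0.87), those most like Slc16a1 were Ift81 (0.82) and Gm12934 (0.80), and those most like Ldha were an unnamed clone-based gene (0.85) and Fbxl16 (0.84). For Pygb they were Sgpp1 (0.91) and Bach2 (0.82), for Bsg Ntan1 (0.88) and Sema3b (0.85), for Gys1 Memo1 (0.87) and Rnase4 (0.85), and for Hk1 Gm37466 (0.84) and Atxn2 (0.83). For Slc2a3 they were Ifi203 (0.88) and Prkg2 (0.82), and for Slc16a7 Wdr7 (0.87) and Man2b1 (0.86). These are the 2 highest of 13924 genes for each member, over 16 libraries of 4 groups.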

How the data were processed

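RNA of 44 libraries in 12 groups was sequenced, and the authors deposited gene tables. The FPKM values were deposited in 3 separately scaled tables; the naive one writes FPKM with decimal commas. STAR, SAMtools, Cufflinks and DESeq2 and build mm10 are named per the submitters' processing notes, with no versions. FPKM divides by transcript length and by mapped fragments, so a few abundant genes can lower all others. In neuron libraries the summed erythrocyte markers reached at most 24162 FPKM, where all genes summed to 566375 to 656459. Their effect on other genes was not tested. Read counts were not used here, so the depth is unknown and no counting interval is given. The authors deposited log2 fold changes and adjusted p-values for 3 comparisons; the sign is not stated, and among their called genes that were also tested here, the folds of 121 of 122 at 3 days, 151 of 152 at 14 days and 220 of 220 in neurons ran opposite to the FPKM difference, so they were turned to ligated over sham. At an adjusted p under 0.05 those tables call 178, 200 and 234 genes, against 9, 1 and 34 here. A further table of this kind was not used here.

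Lines sharing an identifier were summed (121, 121 and 20 lines). Genes were kept where the number of libraries reaching 1 FPKM was no less than the size of the table's smallest group. They were tested on log2(FPKM + 1), a scale that understates changes of low genes, with limma 3.58.1 (empirical Bayes with a trend, two-sided) in R 4.3.3. All groups of a table shared a fit; the Benjamini-Hochberg adjustment ran across every gene kept, and a gene was called at an adjusted p under 0.05. The script was tested on simulated data. Values ± SD are over libraries and differences ± SE are on the log2 scale. Figures used Python 3.11.15 and Matplotlib 3.10.9.

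The members and lists were chosen with earlier results of these data known. Named genes were the 10 members, up to 12 called genes of 8 pathway lists (112 genes) with the largest differences per comparison, or the 3 largest where none was called, and the 2 genes most like each member by Pearson r; others are marked where they appear. A result that this rule selects in neurons is not reported here. Alternatives were a pseudocount of 0.1, no filter, quantile normalization, only the groups compared, a replicate block and leaving out each library.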

Additional observations from a re-analysis of the deposited data

Results flagged for a closer look

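In 104 groups of 4 libraries, 6 values stood far from the rest of their group by Dixon's 95% criterion; chance gives about 1 in 20 groups. Slc2a1 was low in SGC library 1 at 3 days after ligation, at 23.1 FPKM against 45.6 to 46.5 in the other 3. Ldhb was high in SGC library 1 at 14 days after sham, at 714 FPKM against 538 to 562 in the others. Gys1 was high in SGC library 2 at 14 days after sham, at 2.01 FPKM against 0.75 to 0.79 in the others. Gys1 was also high in neuron library 2 of the ligated side, at 39.0 FPKM against 24.4 to 26.7 in the others. In DRG library 4 the Ldhb share of Ldha and Ldhb was 82.1%, against 76.2% to 77.1% in the others, and the Slc16a1 share of Slc16a1 and Slc16a7 was 75.6%, against 72.4% to 72.7%.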

How the results depend on the processing

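The 10 log2 differences of each of the 7 comparisons were refitted. Under another setting 304 of 310 kept their direction and side of the threshold, and 628 of 720 did so without 1 library. No called difference turned. Of those not called, the following took both signs over the libraries left out. In naive SGCs minus DRGs, the range was Slc16a7 -0.0054 to 0.22. At 3 days, the ranges were Slc2a3 -0.10 to 0.24, Slc16a1 -0.12 to 0.13, Slc16a7 -0.15 to 0.44 and Gys1 -0.59 to 0.21. At 14 days, the ranges were Slc2a1 -0.037 to 0.23 and Slc16a7 -0.081 to 0.29. For the difference between the days, the ranges were Slc2a3 -0.045 to 0.35, Slc16a7 -0.34 to 0.25 and Bsg -0.017 to 0.24. In neurons after ligation, the ranges were Slc16a1 -0.20 to 0.058, Bsg -0.037 to 0.058, Ldhb -0.31 to 0.091, Hk1 -0.015 to 0.41, Pygb -0.098 to 0.20 and Gys1 -0.16 to 0.075. For the difference between the sexes, the ranges were Slc2a1 -0.24 to 0.23, Slc2a3 -0.18 to 0.21, Slc16a7 -0.28 to 0.62, Bsg -0.18 to 0.022, Ldha -0.030 to 0.29, Ldhb -0.12 to 0.67, Hk1 -0.16 to 0.68 and Gys1 -0.32 to 0.14. Between the sides, the ranges were Slc16a1 -0.21 to 0.45, Slc16a7 -0.39 to 0.32, Bsg -0.083 to 0.11, Ldha -0.11 to 0.24, Ldhb -0.10 to 0.39, Hk1 -0.12 to 0.19 and Gys1 -0.058 to 0.45. Quantile normalization turned Pygb in neurons after ligation (-0.020) and, for the difference between the sexes, Slc2a1 (0.034) and Bsg (0.044), and a pseudocount of 0.1 turned Slc16a1 between the sides (-0.041). Other pathway genes were refitted only with quantile normalization in naive mice. The count of members called was 6 to 8 in naive mice and 0 in the others under every setting run. Counts over all genes moved more. At 3 days 9 genes were called, against 14 with a pseudocount of 0.1, 1 with no filter, 4 with only the groups compared, 1 with a replicate block, and 1 to 6 without 1 library. At 14 days 1 gene was called, against 6 with only the groups compared, 0 with a replicate block, and 0 to 5 without 1 library. For the difference between the days 1 gene was called, against 0 with a replicate block and 1 to 4 without 1 library. In neurons 34 genes were called for ligated over sham and 21 to 39 without 1 library, 0 for the difference between the sexes and 0 to 1 without 1 library, and 81 between the sides, against 36 with only the groups compared. The cause was not tested.

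Whether same-numbered SGC and DRG libraries, or ligated and sham SGC libraries, form pairs is not known. Same-numbered libraries' deviations correlated at 0.0027 to 0.19 in naive groups, -0.076 to 0.0031 at 3 days and -0.038 to 0.069 at 14 days. No values for differently numbered libraries stand beside these, so they cannot decide the pairing. A replicate block gave 5187 calls in naive mice, against 5789 without it, and changed no member's call. For neurons, no paired analysis was possible because the deposited columns carry no replicate numbers. Unknown depth limits what can be said of members at a few FPKM, Slc2a3 and Gys1 in SGCs, Slc16a1 in neurons and Slc16a7 throughout.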
